A study of Mus musculus with 12 samples.

Results

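Transcript levels were compared between early passage mouse embryonic fibroblasts (MEFs) from Itpr2 knock-out mice and from wild-type mice. The members are the 3 arrays titled as early passage knock-out (KO) and the 3 titled as early passage wild type (WT), which makes 6 of the 12 arrays of the series, and they are described across 19507 genes and unnamed transcripts. MEFs are primary cells grown out of whole embryos, here taken at E12.5. Early cultures had been passaged 3 times in medium with 10% fetal bovine serum, and both genotypes were handled alike. The design text gives 3 independent animals of each genotype. The sources used here do not give the allele or what it deletes, the promoter of any Cre, the mouse strain, or whether WT and KO embryos were littermates. The other 6 arrays are late passage cultures (5 passages) of both genotypes. They entered the same statistical model and serve below to set an early difference beside the late one.

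Itpr2 encodes the type 2 inositol trisphosphate receptor. Receptors of this family sit in the membrane of the endoplasmic reticulum and release stored calcium into the cytosol when phospholipase C makes inositol trisphosphate. Part of that calcium enters mitochondria at contact sites, and the refilling of the store draws on calcium channels of the plasma membrane and on calcium pumps. In cultured fibroblasts, calcium passed from the endoplasmic reticulum to mitochondria has been linked to cellular senescence, the lasting growth arrest that builds up with passage. The comparison therefore asks how KO-labelled fibroblasts differ from WT before that stage.

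Signals are log2 intensities relative to the 75th percentile of each array, so a value of 0 lies at that percentile. On the 6 early arrays, 59.1% to 61.7% of 39429 probes passed the scanner software's own test for signal well above background, 0 probes were saturated, and the 75th percentile of intensity ranged from 522 to 634.6. Correlations over all genes tested ran from 0.985 to 0.99 among WT arrays, from 0.99 to 0.996 among KO arrays and from 0.985 to 0.996 between genotypes. Each of 3 slides carried 1 WT and 1 KO early array, with WT at position 3 and KO at position 4 on every slide, so position and genotype cannot be told apart. Of the WT arrays, 2 stand apart. WT replicate 3 was the farthest from the others over all genes, with a median absolute log2 difference of 0.27 to 0.345 to each of them, against 0.121 to 0.244 among the other 5. WT replicate 1 lay within that range but differed in sex-linked transcripts. Xist, which coats the silenced X chromosome of females, was detected above background on WT replicate 1 alone. On that array the Y-linked transcripts Ddx3y, Uty, Eif2s3y and Kdm5d were not above background. The other 5 early arrays carried Y-linked transcripts, with Kdm5d below background on WT replicate 3. The count of calls, the called genes and some list medians are also given without each of these arrays. Shares of genes within lists and near Itpr2, counts of separate groups and values of uncalled genes were not recomputed without them.

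Few genes were called as different between early KO and WT arrays. A gene was called where the limma p-value, adjusted by Benjamini-Hochberg across the 19507 genes, was under 0.05. Of these genes, 7 were called (0.0359%), 5 higher in KO (0.0256%) and 2 lower (0.0103%), and the count was also 7 at an adjusted p under 0.10. An unadjusted p under 0.05 was reached by 1179 genes (6.04%), 644 higher and 535 lower. In 1895 genes (9.71%) the 3 KO values lay all above or all below the 3 WT values. The median log2 difference, KO minus WT, was 0.016, and the 1st and the 99th percentile of the differences were -0.66 and 0.68. Without WT replicate 1, 4 genes were called, and these were Dera, Ints13, Mgp and Pbp2. Without WT replicate 3, 3 genes were called, Dera and Ints13 among them, and 650 had an unadjusted p under 0.05. The next paragraphs go through the 7 in turn.

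**Figure D1:**
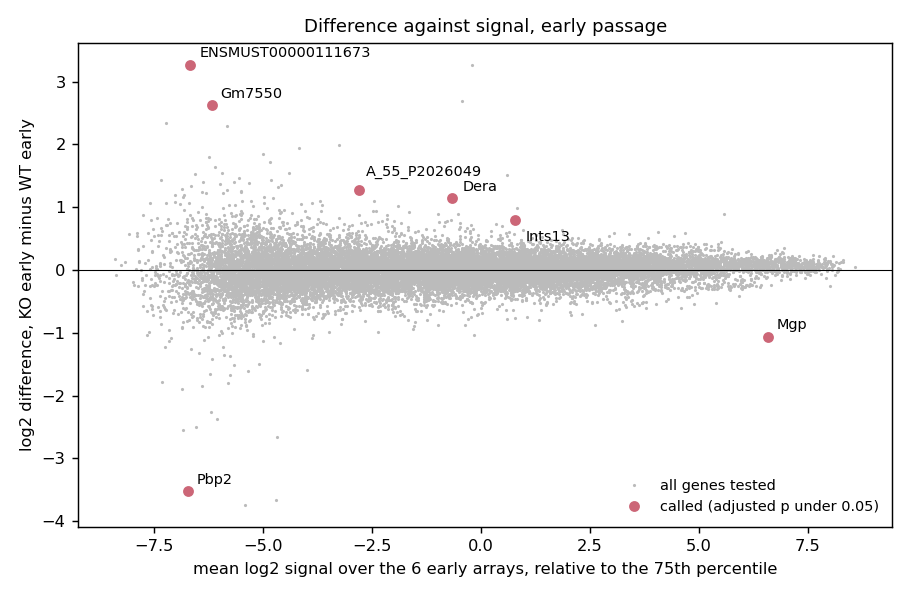
Log2 difference (KO early minus WT early, vertical axis) against the mean log2 signal of the 6 early arrays relative to the 75th percentile (horizontal axis), 1 point per gene for 19507 genes. The 7 called transcripts are marked and named; 3 of them (ENSMUST00000111673, Gm7550 and Pbp2) lie at low signal, while Mgp lies at high signal.

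Ints13 and Dera had the smallest p-values. Ints13 encodes a subunit of the Integrator complex, which processes small nuclear RNAs and ends transcription at many genes. Its log2 signal was 0.39, 0.32 and 0.44 on the 3 WT arrays and 1.24, 1.16 and 1.15 on the 3 KO arrays. Every KO array was high and every WT array low, with no overlap. The log2 difference was 0.80 ± 0.069 (SE, n = 3 per group), or 1.74-fold higher in KO (limma, adjusted p = 0.0031). Dera encodes deoxyribose-phosphate aldolase, an enzyme that breaks down deoxyribose 5-phosphate. On the WT arrays the log2 signal was -1.27, -1.37 and -1.07, and on the KO arrays -0.13, -0.069 and -0.086. The KO arrays lay within a narrow band well above the WT arrays. The KO level was 2.21-fold that of WT, at 1.14 ± 0.091 on the log2 scale (SE, n = 3 a group; adjusted p = 0.0031). Both genes stayed called when any single early array was left out, with adjusted p-values between 0.0016 and 0.0311.

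Mgp and Pbp2 were the 2 genes that fell. Mgp encodes matrix Gla protein, a secreted inhibitor of calcification made by fibroblasts, cartilage and smooth muscle, and its probe was bright on every array. The WT arrays had log2 signals of 6.85, 7.29 and 7.17 and the KO arrays 5.85, 6.09 and 6.18. The groups did not overlap, and the differences within slides 1, 2 and 3 were -1.0, -1.20 and -0.99. Mgp fell by 1.06 ± 0.13 on the log2 scale (SE, n = 3 a group; adjusted p = 0.033). It stayed called without WT replicate 1 (adjusted p = 0.0204). It was not called without WT replicate 2, WT replicate 3, KO replicate 1, KO replicate 2 or KO replicate 3, where adjusted p-values were 0.0881 to 0.196.

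Pbp2 encodes a protein of the phosphatidylethanolamine-binding family. Its log2 signal was -6.17, -4.06 and -4.66 on the WT arrays and -8.38, -8.75 and -8.33 on the KO arrays. Only probes well above background on all 3 arrays of 1 group or more were tested, so a dim gene could enter through the group where it was higher. Pbp2 was well above background on 3 of 3 WT arrays and on 0 of 3 KO arrays. A fold is therefore given as a bound, with the mean of the measured group set against the dimmest signal that counted as above background on the other arrays. Pbp2 was at least 2.29-fold lower in KO (adjusted p = 0.038). Leaving out WT replicate 1, where it was dimmest among WT arrays, gave an adjusted p of 0.0031, and leaving out any other early array gave 0.116 to 0.287.

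**Figure D2:**
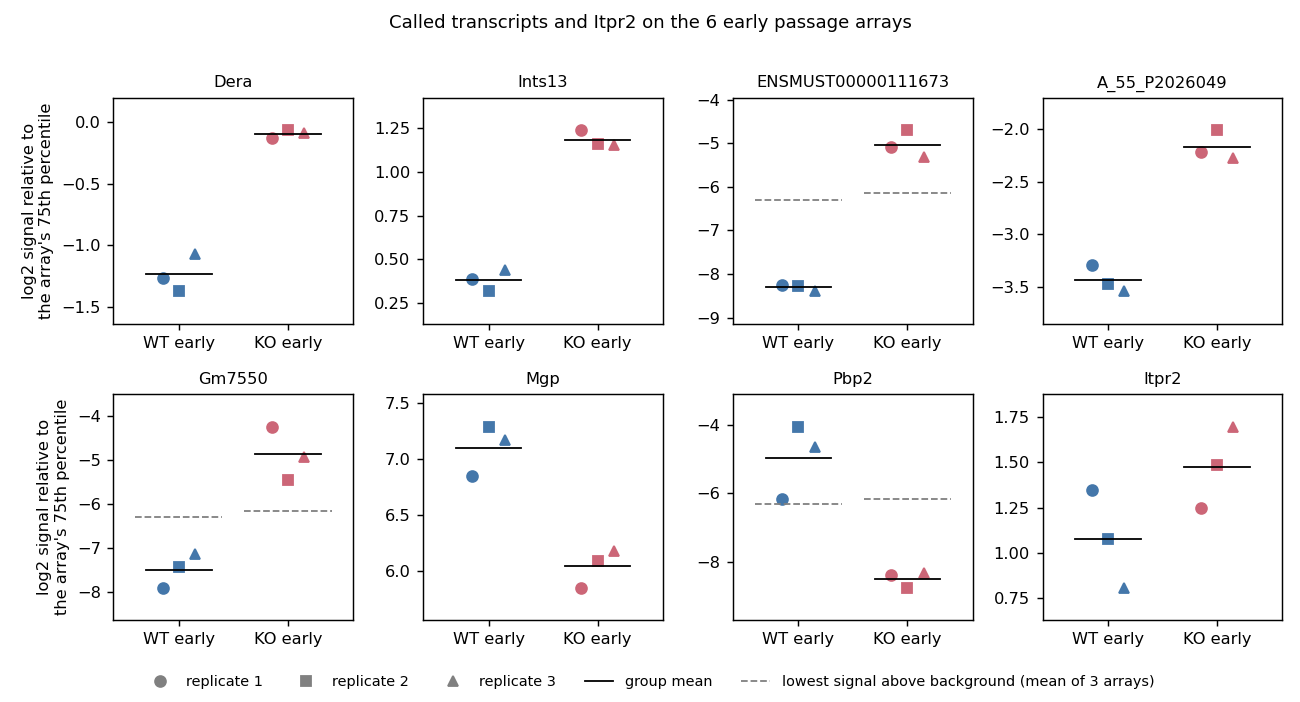
Log2 signal relative to the 75th percentile of the array (vertical axis of each panel, with its own range) for the 7 called transcripts and Itpr2 on the 3 WT and 3 KO early arrays; symbols mark replicates, solid lines group means and dashed lines the dimmest signal that counted as above background. The groups are separate in the 7 called transcripts and overlap for Itpr2, whose mean was 1.08 in WT and 1.48 in KO.

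The 3 remaining calls carry no established symbol or a provisional one. A_55_P2026049, a probe without a matched gene, had log2 signals of -3.30, -3.47 and -3.55 on the WT arrays and -2.21, -2.01 and -2.27 on the KO arrays. The KO arrays were the higher ones throughout, by 1.27 ± 0.15 on the log2 scale (SE, n = 3 a group; adjusted p = 0.031). ENSMUST00000111673 was between -8.40 and -8.25 on the WT arrays and between -5.33 and -4.71 on the KO arrays. It was above background on 3 of 3 KO and 0 of 3 WT arrays, at least 2.41-fold higher in KO (adjusted p = 0.012). Gm7550, a predicted gene on chromosome 12, was between -7.91 and -7.14 on the WT arrays and between -5.45 and -4.24 on the KO arrays. It too was above background only on the KO arrays, at least 2.71-fold higher (adjusted p = 0.032). With single arrays left out, A_55_P2026049 had adjusted p-values of 0.0635 to 0.196 and ENSMUST00000111673 of 0.0554 to 0.104, so leaving out any 1 of the 6 arrays ended both calls. Gm7550 stayed called only without KO replicate 2 (0.0311), with values of 0.101 to 0.130 otherwise.

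After normexp background correction, which raises dim signals towards a common floor, the log2 differences of the 3 dim transcripts were much smaller. They were 0.33 for ENSMUST00000111673, 0.51 for Gm7550 and -0.40 for Pbp2 (adjusted p = 0.896 for each). A_55_P2026049 was at 0.81 (adjusted p = 0.115). Dera, Ints13 and Mgp kept differences of 0.97, 0.78 and -1.08 and stayed called. Of the 19507 genes tested, 9 were above background on 3 of 3 KO and 0 of 3 WT arrays, and 32 showed the reverse. Such a split by itself meets the filter on dim probes, so both counts depend on that filter. The share of all probes above background was 60%, 61.5% and 61.7% on WT replicates 1, 2 and 3. On KO replicates 1, 2 and 3 it was 59.1%, 61.6% and 59.9%. Whether this bears on the 2 counts was not tested.

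At late passage, 6 of the 7 transcripts were called again in the same direction, where 1514 of 19507 genes were called (7.76%). Ints13 had a late log2 difference of 0.80 and Dera of 1.16, close to their early values. Mgp had -0.59 and Pbp2 -5.68. Gm7550 was the exception, with -0.25 (adjusted p = 0.683). The late arrays are other libraries with the same genotype labels, and the sample titles do not say whether they come from the same animals. Both contrasts came from 1 model with a spread per gene pooled over all groups. The late calls are therefore not a separate test of the early ones.

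Of the 7 calls, 5 have a known place here, and 4 of those lie on chromosome 6, the chromosome of Itpr2, with Gm7550 on chromosome 12. A_55_P2026049 and ENSMUST00000111673 were not placed. In the order of annotated genes, Ints13 is the 4th gene above Itpr2 and its nearest measured neighbour. Dera, Mgp and Pbp2 are 124, 137 and 174 genes below it. Itpr2 sits close to one end of the table's chromosome 6, with 65 genes above it and 2797 below. Promoter sequences, 250 bases before to 50 bases after the annotated start, are shown for the called genes at either end of this stretch, Ints13 (higher in KO) and Pbp2 (lower in KO), from RefSeq on assembly GRCm38.p6. Capitals mark the TATAAA motif, the GGGCGG motif (bound by Sp1-type factors) or the CCAAT motif, searched on both strands and shown as the letters of the printed strand, with no overlaps among them. The Ints13 promoter is chr6:146577786-146578085 and the Pbp2 promoter is chr6:135310335-135310634, both on the minus strand.
Ints13: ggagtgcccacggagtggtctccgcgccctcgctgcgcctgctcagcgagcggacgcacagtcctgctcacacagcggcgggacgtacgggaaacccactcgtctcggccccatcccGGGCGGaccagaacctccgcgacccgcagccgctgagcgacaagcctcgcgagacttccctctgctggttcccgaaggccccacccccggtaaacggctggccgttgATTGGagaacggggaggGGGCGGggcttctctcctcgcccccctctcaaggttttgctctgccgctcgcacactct
Pbp2: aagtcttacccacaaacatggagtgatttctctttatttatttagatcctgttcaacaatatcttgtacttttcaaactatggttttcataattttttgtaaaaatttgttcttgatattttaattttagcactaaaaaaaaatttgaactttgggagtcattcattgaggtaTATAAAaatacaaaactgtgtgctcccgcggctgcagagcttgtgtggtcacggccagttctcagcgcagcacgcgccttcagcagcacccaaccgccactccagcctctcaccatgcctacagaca
The Ints13 window holds 32 CpG pairs, 2 matches to GGGCGG and 1 to CCAAT. The Pbp2 window holds 7 CpG pairs and 1 match to TATAAA. Over 32851 promoters of the same length, the median was 7 CpG pairs, and TATAAA was found in 13.6%, GGGCGG in 35.7% and CCAAT in 37.4%. These matches describe the letters only. Dera and Mgp are named without a promoter.

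Around Itpr2 a larger share of genes passed the unadjusted limit than over the array as a whole. Within 200 genes of Itpr2, 79 genes were measured besides it, and 4 were called, 2 higher and 2 lower. In that window 18 of 79 (22.8%) had an unadjusted p under 0.05, against 6.04% of all genes, and in 20 (25.3%) the groups did not overlap, against 9.71%. The signs were mixed, with 46 of 79 positive and a median of 0.049. Over the whole of chromosome 6, 50 of 720 measured genes (6.94%) had an unadjusted p under 0.05. These shares describe the window, which was drawn with the called genes already known.

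Within the window the genes with an unadjusted p under 0.05 were spread unevenly. Among the first 20 genes above Itpr2, 5 of 11 measured genes had an unadjusted p under 0.05, and among the first 20 below it 0 of 5. Between 21 and 100 genes away there were 1 of 11 above and 0 of 19 below, and in the next 100 genes below 12 of 33 (36.4%). Beyond the window, the 100 genes after those held 0 of 18, and the next 300 genes below held 8 of 87 (9.2%). Of the 18 genes in the window, 16 (88.9%) had the same sign at late passage and 8 were called there in that direction. Among all genes with an unadjusted p under 0.05 at early passage, 862 of 1179 (73.1%) kept their sign and 109 were called late in that direction.

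**Figure D3:**
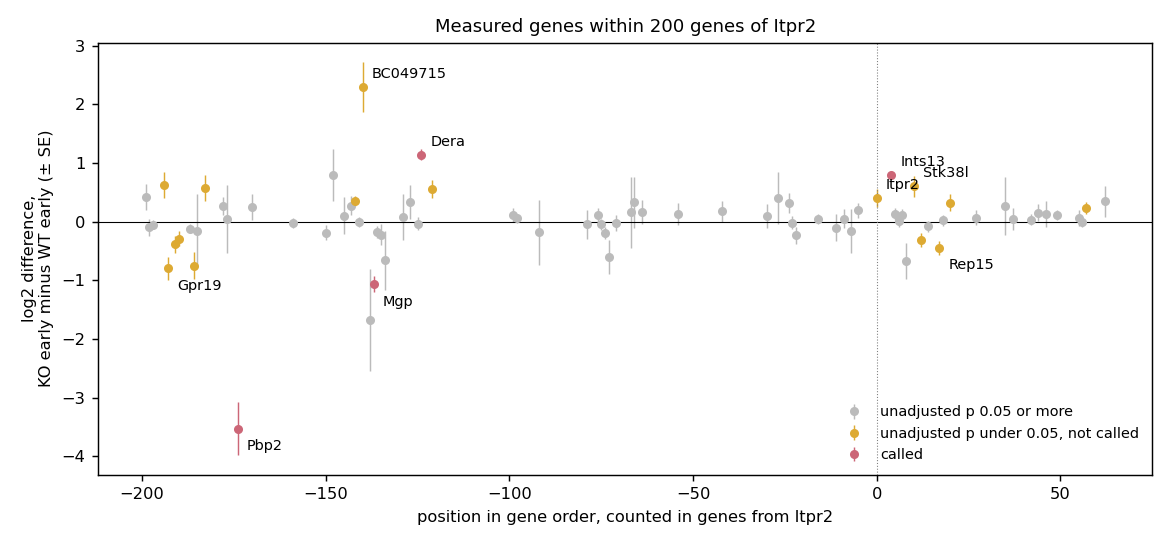
Log2 difference (KO early minus WT early, ± SE) of each measured gene within 200 genes of Itpr2, by its position in the gene order counted from Itpr2. The called genes are Ints13 at 4, Dera at -124, Mgp at -137 and Pbp2 at -174; points of both signs stand in the stretch from 100 to 200 genes below Itpr2 and in the first 20 genes above it.

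Stk38l, the 10th gene above Itpr2, encodes a kinase of the NDR family. On the brightest of its 3 probes the log2 signal was 0.62, 0.35 and 0.04 on the WT arrays and 1.04, 0.92 and 0.87 on the KO arrays. The groups did not overlap, and the difference of 0.61 ± 0.18 was not called (adjusted p = 0.743). The other probes of Stk38l gave 0.79 and 0.66. Rep15, which encodes a protein that binds the GTPase Rab15, had a log2 difference of -0.45 ± 0.12 with separate groups, and -0.49 at late passage, where it was called (adjusted p = 0.032). Arntl2, a transcription factor of the circadian clock, was at -0.31 ± 0.13 and Klhl42, an adaptor of a ubiquitin ligase, at 0.33 ± 0.14, neither of them called.

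In the farther stretch, some genes chosen after their values were seen stood out. BC049715 was above background on 3 of 3 KO arrays, between -4.69 and -4.66, and on 0 of 3 WT arrays. It was at least 3.1-fold higher in KO, but its adjusted p of 0.358 missed the threshold. Mgst1, a microsomal glutathione transferase, had a difference of 0.55 ± 0.16 with separate groups. Gprc5a, a receptor induced by retinoic acid, had -0.75 ± 0.23 with overlapping groups. Its differences within slides 1, 2 and 3 were 0.10, -1.06 and -1.30, so slide 1 had the opposite sign. Mgst1 and Gprc5a were called at late passage in the same direction as at early passage. Cdkn1b, which encodes the cyclin-dependent kinase inhibitor p27, lies 191 genes below Itpr2. Its log2 signal was 1.83, 2.10 and 1.99 on the WT arrays and 1.35, 1.60 and 1.81 on the KO arrays, a difference of -0.39 ± 0.14 that was not called (adjusted p = 0.743). The KO values lay below all WT values, and at late passage the difference was 0.40 with the opposite sign. Gpr19, an orphan receptor at 193 genes below, had -0.80 ± 0.19 at early passage and -0.18 at late passage, and was called at neither.

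For some genes in this stretch, probes of the same gene disagreed. The gene-level count uses the brightest probe of each gene. With all 24359 kept probes tested, 9 were called, and the additions were a second probe of Strap and a second probe of H2aj, 125 and 142 genes below Itpr2. Both were singled out after their values were seen. Strap encodes a WD-repeat protein of the SMN complex, and H2aj a variant of histone H2A.

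Strap probe A_52_P650379 had log2 signals of 1.59, 1.44 and 1.49 on the WT arrays and 0.36, 0.06 and 0.01 on the KO arrays. The probe thus differed by -1.37 ± 0.12 on the log2 scale (SE, n = 3 a group; adjusted p = 0.0033 over probes), and it was -1.67 at late passage. The brighter Strap probe, A_66_P106375, lay between 0.99 and 1.09 on the WT arrays and between 0.86 and 1.15 on the KO arrays, with overlapping groups. H2aj probe A_55_P2099540 was between -1.04 and -0.48 on the WT arrays and between -2.51 and -2.37 on the KO arrays, a difference of -1.65 ± 0.15 (adjusted p = 0.0040 over probes). The brighter H2aj probe, A_52_P407692, went the other way, with 6.72, 6.88 and 6.74 on the WT arrays and 7.21, 7.08 and 7.10 on the KO arrays. Within 200 genes of Itpr2, 24 genes had several kept probes, and in 8 of them the probes differed in sign. Some of these differences were small, as for Ccdc91 at 0.062 and -0.053. The share over the whole array was not computed, so the count is not shown to be particular to this stretch. A signal from 1 probe, as for Ints13, Dera, Mgp and Pbp2, therefore describes the stretch of transcript that the probe binds. Probe sequences were not used here.

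**Figure D4:**
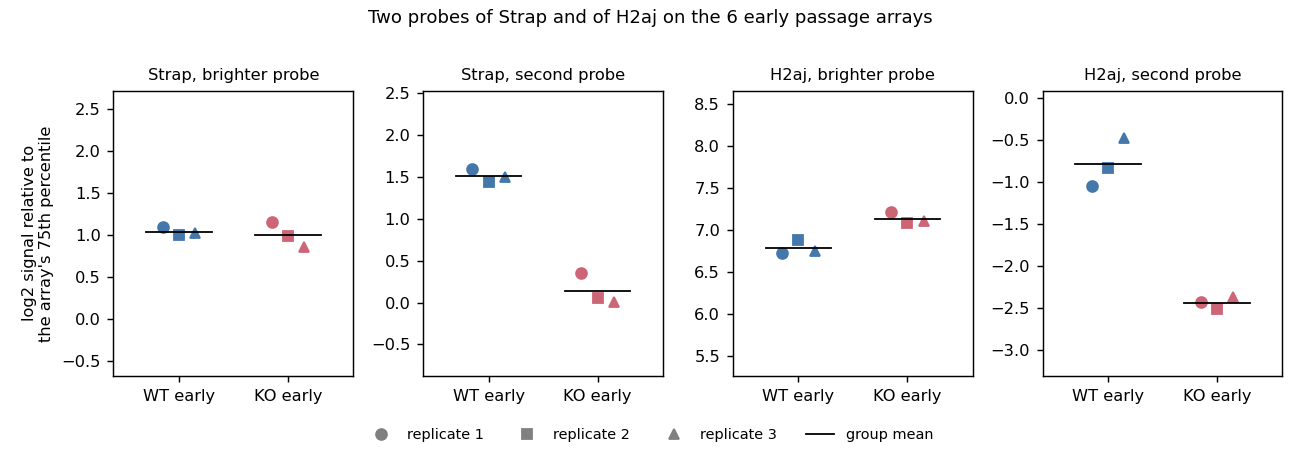
Log2 signal relative to the 75th percentile of the array for the brighter and the second probe of Strap and of H2aj on the 3 WT and 3 KO early arrays; symbols mark replicates, lines group means, and all panels span the same number of log2 units. The second probe of each gene is lower on every KO array, while the brighter Strap probe overlaps and the brighter H2aj probe is higher on every KO array.

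Itpr2 itself was measured by 1 kept probe. Its log2 signal was 1.35, 1.08 and 0.81 on the WT arrays and 1.25, 1.48 and 1.70 on the KO arrays. KO replicate 1 lay among the WT values, so the groups overlapped. The difference of 0.40 ± 0.15 was positive and was not called (adjusted p = 0.743). The signal was thus not lower in KO-labelled arrays. Its place relative to the deletion is unknown from the labels and files, so the probe does not check the genotype label. The paralogues were not called either. Itpr1 had a difference of 0.043 ± 0.12 and Itpr3 of 0.055 ± 0.17, both with overlapping groups.

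In the machinery around the receptors, 0 of the measured genes were called by limma. These and the other gene lists were chosen with earlier results of these data known and are described by counts only, beside 53.4% positive differences and a median of 0.016 over all genes. Phospholipases C and inositol kinases, which make and convert inositol trisphosphate, had 7 of 19 positive and a median of -0.049. Plcb1 was at 0.39 ± 0.17 and Plcg1 at -0.46 ± 0.14, each with separate groups and an adjusted p of 0.743. Genes of store-operated calcium entry and calcium pumps had 11 of 24 positive. In that list Atp2a2, the calcium pump SERCA2 of the endoplasmic reticulum, had -0.29 ± 0.14, and a second, dimmer probe of it -0.048. Genes of mitochondrial calcium uptake had 8 of 15 positive, with Slc8b1, the mitochondrial sodium-calcium exchanger, at 0.31 ± 0.11. A second, dimmer probe of Slc8b1 gave -0.066. Genes of the sites where mitochondria touch the endoplasmic reticulum had 10 of 21 positive, and those of calcineurin, NFAT and calmodulin kinases 14 of 24. At an unadjusted p under 0.05, the phospholipase list held 2 genes, the uptake list 1 and the other 3 lists 0, against 6.04% of all genes. In the contact list the 95% interval of the difference lay within 2-fold either way for 21 of 21 genes, and in the uptake list for 14 of 15.

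Genes of growth arrest, senescence and the cell cycle likewise held 0 calls. Among cyclin-dependent kinase inhibitors, 6 of 8 were positive with a median of 0.11, and 3 of 8 had separate groups, against 9.71% of all genes. The 2 negative members were Cdkn1a and Cdkn1b, with Cdkn1b at -0.39 ± 0.14 and separate groups. Cdkn1c, which encodes p57, was at 0.54 ± 0.31 with overlapping groups. Cdkn1a and Cdkn2a, named here as the textbook members and outside the naming rule, were at -0.32 ± 0.14 and 0.29 ± 0.26. Of the p53 targets, which also include Cdkn1a, 20 of 33 were positive. Relative to its error, Tnfrsf10b was the lowest at -0.28 ± 0.088 and Apaf1 the highest at 0.50 ± 0.21. Secreted factors of senescent cells had 23 of 42 positive and a median of 0.11, with Ccl2, a monocyte chemokine, at 0.30 ± 0.12 and Mmp14, a membrane-bound collagenase, at -0.55 ± 0.22. Only 24 of those 42 genes had an interval within 2-fold either way. DNA replication genes had 34 of 47 positive (median 0.059) and genes of G2 and mitosis 32 of 42 (median 0.054). The intervals of all 47 and all 42 lay within 2-fold. At an unadjusted p under 0.05 the kinase inhibitors held 2 of 8 genes (25%), the p53 targets 4 of 33 (12.1%), the secreted factors 3 of 42 (7.14%), the replication genes 3 of 47 (6.38%) and the mitosis genes 2 of 42 (4.76%), against 6.04% of all genes. The 2 kinase inhibitors were the negative members, so the share and the positive median of that list point in opposite directions.

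Housekeeping groups showed small shifts that were uneven over slides. Of the cytosolic ribosomal protein genes, 71 of 77 were positive with a median of 0.11; 0 were called by limma and 1 (1.30%) had an unadjusted p under 0.05. Their medians within slides 1, 2 and 3 were 0.29, 0.070 and -0.055, so slide 1 was high and slide 3 had the opposite sign. Mitochondrial ribosomal proteins had 61 of 75 positive (median 0.094) and the respiratory chain 65 of 75 (median 0.094). Slide 1 was again the highest, at 0.21 and 0.25. Mrpl47, a protein of the large mitochondrial ribosomal subunit, had separate groups and a difference of 0.43 ± 0.087 (adjusted p = 0.624). A second, dimmer probe of Mrpl47 gave 0.0002. Glycolysis had 5 of 25 positive (median -0.045) and sterol synthesis 7 of 25 (median -0.059). The sterol medians were 0.17, -0.15 and -0.23 on slides 1, 2 and 3. Without WT replicate 1 the medians of glycolysis and sterol synthesis were -0.13 and -0.15, and that of the cytosolic ribosomal list was 0.075. Without WT replicate 3 they were 0.023, -0.046 and 0.13, so the sign for glycolysis turned.

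Matrix and growth factor genes held Mgp as their 1 called member, in the list of matricellular proteins, where 15 of 24 were positive. Collagens had 11 of 34 positive and a median of -0.087, with Col4a6 at -0.36 ± 0.19. Elastic fibre genes had 8 of 24 positive and a median of -0.090. Biglycan, Bgn, a small proteoglycan of the matrix, had log2 signals of 3.63, 3.58 and 3.92 on the WT arrays and 3.11, 3.23 and 3.35 on the KO arrays. Its groups were separate, and the difference of -0.48 ± 0.13 was not called. Adamts5, an aggrecanase, was at -0.63 ± 0.14, also with separate groups and not called. Igf2, the imprinted fetal growth factor, had log2 signals of 2.71, 3.13 and 3.34 on the WT arrays and 1.85, 2.21 and 2.51 on the KO arrays. Every KO value was below every WT value, and the difference of -0.87 ± 0.32 had an adjusted p of 0.743. At late passage Igf2 was at 0.055. C3, the central complement protein, was at 0.60 ± 0.20 and the complement regulator Cd59a at -0.77 ± 0.17, both with separate groups and neither called. A second kept probe of C3 differed by only 0.18.

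Markers of macrophages and cartilage varied widely between arrays of one genotype. Of the 12 marker lists, 0 held a gene called by limma, and at an unadjusted p under 0.05 the count was 2 of 7 measured epithelial markers, 1 of 8 endothelial, 1 of 9 skeletal muscle and 1 of 5 hepatocyte markers and 0 in the other 8 lists, against 6.04% of all genes. Fibroblast markers were present as labelled, with 16 of 16 measured and 15 or 16 above background on each array, and their summed signal relative to the 75th percentile was 853 to 1036 in WT and 930.2 to 981.2 in KO. Macrophage markers were also above background, 20 of 20 on every array, with a summed signal of 86.5 to 167 in WT and 89.6 to 118 in KO. Their medians within slides 1, 2 and 3 were -0.95, 0.30 and 0.78, so the sign turned between slides while the list's median was 0.012. WT replicate 1 was the high array and WT replicate 3 the low one, at 0.80 and -0.62 from the mean of the 6 arrays. Cartilage markers followed a like pattern, at -1.25, 0.45 and 0.70 over the slides, with 12 to 15 of 18 above background. Without WT replicate 1 the medians were 0.47 for macrophage markers, 0.30 for cartilage markers and 0.22 for Hox genes, which set position along the body axis, against 0.012, 0.009 and 0.14 with it. Without WT replicate 3 they were -0.24, -0.13 and -0.049, with the opposite sign. In such bulk cultures, fewer cells of a type and less RNA per cell cannot be told apart. Mgp is itself made by cartilage, and whether the cartilage markers bear on its difference was not tested; on slide 1, where cartilage markers were lower in KO, Mgp was at -1.0, and on slides 2 and 3, where they were higher in KO, it was at -1.20 and -0.99.

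Outside fibroblasts and macrophages, smooth muscle markers were 14 of 14 above background, which cultured fibroblasts share, with summed signals of 785 to 1022 in WT and 747.6 to 1008 in KO. Their median was -0.18, with 2 of 14 positive and slide medians of -0.14, 0.075 and -0.32. Bone markers had summed signals of 11.4 to 18.0 in WT and 19.6 to 24.5 in KO, the only marker list whose summed signals did not overlap. Of that list 7 of 11 genes were measured, and Spp1, which encodes osteopontin, was at 0.60 ± 0.29 with separate groups and was not called (adjusted p = 0.743). Endothelial, epithelial, skeletal muscle, blood cell and hepatocyte markers were partly above background, with 3 to 12 of their 11 to 19 listed genes on an array.

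**Figure D5:**
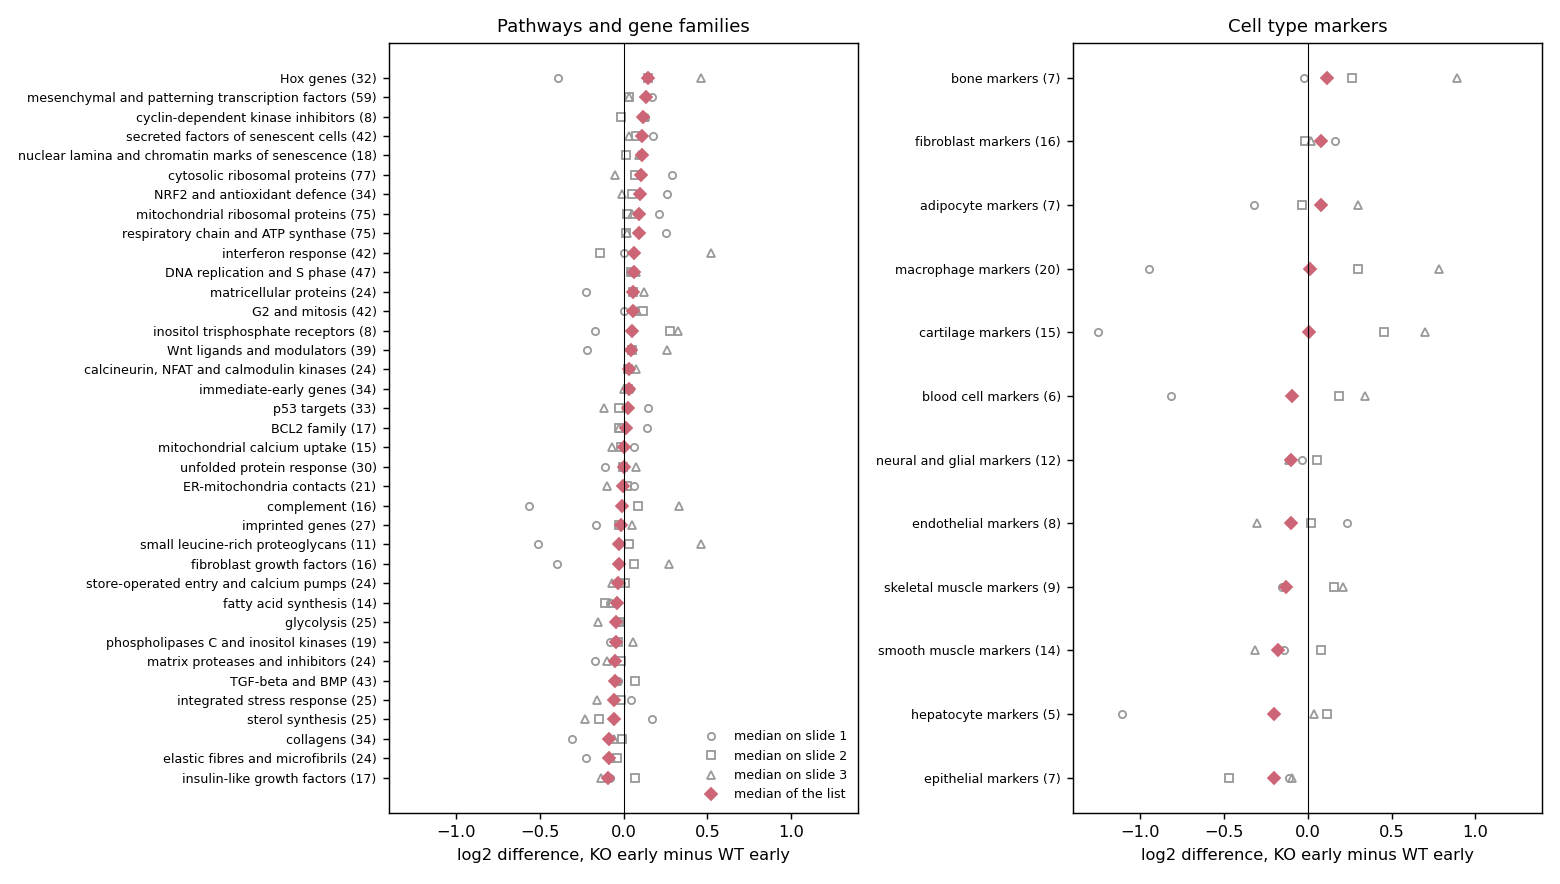
Median log2 difference (KO early minus WT early) of each gene list (diamonds; number of measured genes in brackets) with the medians within slides 1, 2 and 3 (open symbols), for 37 lists including pathways and gene families and 12 lists of cell type markers. List medians run from -0.204 to 0.143, and slide medians of macrophage and cartilage markers spread from -0.95 to 0.78 and from -1.25 to 0.70.

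Over the 49 lists without the sex-linked genes, 26 had a positive and 23 a negative median, between -0.204 and 0.143. In 14 the 3 slides shared a sign, 8 positive and 6 negative. The slide 1 median was below both others in 21 lists and above both in 17. KO replicate 3 also stood apart from the other early arrays on the second principal component (19.3% of the variance of all 12 arrays), at -23.8 against -11 to 6.50 for the rest and -30.8 to -25.6 for the KO late arrays.

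Among genes that missed the threshold, the 10 highest and the 10 lowest with separate groups, an unadjusted p under 0.05 and signal above background on all 6 arrays ran from 0.74 to 1.03 and from -1.59 to -0.72. Slc9b2, a sodium-proton exchanger, led the higher ones at 1.03 ± 0.33. Its log2 signal was -3.74, -3.95 and -4.82 on the WT arrays and -3.41, -3.13 and -2.88 on the KO arrays. The gap between the groups was small beside the spread within WT. Ccl28, an epithelial chemokine, was at 0.91 ± 0.24, Crym, a thyroid hormone-binding protein, at 0.92 ± 0.36, and Il33, an alarmin cytokine, at 0.77 ± 0.30. These 4 genes were called at late passage in the same direction. Fam110c was at 0.95 ± 0.29 early and at -1.39 late on 1 probe. Its second kept probe gave only 0.16 at early passage.

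Siah3 led the lower ones at -1.59 ± 0.38. Siah3 had log2 signals of -4.15, -2.91 and -2.54 on the WT arrays and -4.85, -4.85 and -4.66 on the KO arrays, where it was low throughout. Jph2, junctophilin 2, which ties the plasma membrane to the calcium store in muscle, was -2.28, -2.29 and -2.24 on the WT arrays and -2.98, -3.17 and -3.10 on the KO arrays. The replicates were tight and the groups separate, and the difference of -0.81 ± 0.18 had an adjusted p of 0.743. Acap3, a regulator of the GTPase Arf6, was at -0.80 ± 0.14 (adjusted p = 0.344) and was called at late passage at -1.11. None of these 20 genes was called at early passage.

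The arrays could bound most differences. For 16912 of 19507 genes (86.7%) the 95% interval of the difference lay within 2-fold either way, and for 61.3% within 1.5-fold. Among the 17734 genes above background on all 6 arrays the first share was 91.6%. The early spread was larger in WT, with a median gene SD of 0.214 against 0.141 in KO, and 2537 genes had an SD over 0.5 in WT against 1465 in KO. At late passage the median gene SD was 0.160 in WT and 0.084 in KO. The intervals use a spread pooled over all 4 groups, so the late arrays enter the early bounds. For the remaining genes the interval reached beyond 2-fold.

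The difference between genotypes itself changed with passage in 17 genes (0.0871%), 4 more positive and 13 more negative at late passage. Of these 17, 0 were called at early passage by limma (7 at an unadjusted p under 0.05) and 17 at late passage, and 12 had opposite signs at the 2 passages. The count depended on single arrays: leaving out KO early replicate 2 or KO late replicate 1 gave 0, and KO late replicate 2 gave 1. It fell to 9 when KO early replicate 1 or KO late replicate 3 was dropped. Dropping WT early replicate 1 or WT late replicate 2 gave 32, WT late replicate 1 gave 45, and KO early replicate 3 gave 211.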

How the data were processed

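RNA of 12 cultures was hybridised to Agilent arrays with 1 dye (Cy3). The deposited scanner files hold spot intensity after background subtraction, per the file headers (Feature Extraction 11.5.1.1, against 10.7.3.1 in the submitters' processing notes). The authors' deposited value table holds log2 values; its values fit a scaling by array at the 75th percentile and a centring by probe, and it served as an alternative.

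From the intensities, outlier spots were left out (130 to 212 per early array), repeated spots averaged, and log2 values taken relative to each array's 75th percentile. A probe needed 3 of 3 arrays well above background in 1 group or more (24359 probes). The brightest kept probe stood for a gene. Symbols came from a GRCm38.p6 gene table (27969 of 28290 RefSeq accessions matched), used for names and gene order only, since the arrays are annotated on an older build. One limma 3.58.1 model (R 4.3.3) with 4 group means was fitted to all 12 arrays, so the spread is pooled over 4 groups (residual degrees of freedom 8, prior 2.19). Adjustment ran over 19507 genes, and the script was tested on simulated data.

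Named were all called genes, the receptors, the 10 highest and 10 lowest uncalled genes with separate groups, the 2 extreme members of each list, genes within 20 of Itpr2 with an unadjusted p under 0.05, and sex-linked genes. The text gives some of these, and says where a gene was picked otherwise. Members and the 50 lists were chosen with earlier results of these data known. Alternatives covered normalization, background correction, filters, probes, samples, blocks and weights. The liver samples mentioned in the design text were not analysed here.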

Additional observations from a re-analysis of the deposited data

Results flagged for a closer look

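For 2 genes named in the report, the difference between KO and WT changed with passage (limma, adjusted over all genes). The late minus early difference of Ccl2, a monocyte chemokine, was -1.646 on the log2 scale (adjusted p = 0.012), from 0.30 at early passage, where the KO arrays lay above all WT arrays, to -1.35 at late passage. The late minus early difference of Tnnt2, cardiac troponin T, was -2.942 (adjusted p = 0.0083), from 0.46 at early passage to -2.48 at late passage. Neither gene was called at early passage, and with KO early replicate 2 or KO late replicate 1 left out 0 genes were called for this difference.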

How the results depend on the processing

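The count of 7 calls stayed within 1.5 times under quantile normalization (5), with every kept probe (9), with a replicate block (5) and with Xist as a covariate (6). It was 3 after normexp background correction, 4 in the authors' deposited table, 3 with no filter on dim probes, 4 with probes above background on all 6 early arrays, 1 with only the 6 early arrays, 0 with the replicate block on those 6 (990 at an unadjusted p under 0.05) and 2 with array weights per group. With single arrays left out it was 2 to 4. Dera and Ints13 were called in 15 of 17 alternatives and missed only in both fits of the 6 early arrays; the replicate block on 6 arrays gave an adjusted p of 0.841 for each. Mgp was called in 7 of 17, A_55_P2026049 in 6 of 17, ENSMUST00000111673 in 5 of 15, Pbp2 in 4 of 15, Gm7550 in 2 of 15 and Itpr2 in 0 of 17. Of 130 values recomputed for these 8 genes, 0 changed sign.

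The 4 called genes within 200 of Itpr2 became 2 with no filter on dim probes or with array weights, 0 in either fit of the 6 early arrays, and 2 to 4 with single arrays left out. The 1 called list member, Mgp, became 0 under quantile normalization, with no filter on dim probes, with array weights and in either fit of the 6 early arrays, and 0 to 1 with single arrays left out. The 17 genes whose difference changed with passage became 4 with the replicate block and 0 to 211 with single arrays left out. The causes were not tested, beyond fewer arrays or other genes tested where the setting says so. Of 400 list medians recomputed, 376 moved by less than the SD over slides.

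Deviations from the group mean correlated at 0.059, 0.056 and 0.157 between same-numbered WT and KO arrays. Between arrays of unlike number the correlations ran from -0.136 to 0.092. The numbers mark slides, so same-numbered samples share a slide and not a known animal. The main model holds no slide term. The replicate block lost the calls of Gm7550 (adjusted p = 0.166) and Pbp2 (0.0863). Normexp was run on the median signal, with outlier spots left out of its fit, as chosen after seeing the data; the planned version on the mean signal was not run. The median difference of all genes was 0.016, 0.0056 under quantile normalization and 0.034 after normexp. Dim transcripts limit the folds that can be given.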
